A study of Mus musculus with 64 samples.

Results

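The 9 genes described here, Cr2, Pax5, Ms4a1, Cd79a, Cd79b, Bank1, Btla, Blk and Fcer2a, are expressed mainly in B lymphocytes. They were chosen by symbol, with rows of the same symbol summed, out of 25107 gene symbols in the tables of 4 mouse tissues: white fat (17780 symbols), lung (18415), heart (21359) and liver (20895). RNA sequencing had been done on 64 libraries of total RNA, 3 in each group of white fat and lung and 5 in each group of heart and liver. All mice carried the genotype written in the labels as Cre+:iMSBmal1 fl/fl, a floxed Bmal1 allele with a Cre, and the titles call the knockout muscle-specific. The promoter that drives the Cre, the agent given for the knockout and the age of the mice are not given in the sources used here.

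The 4 groups of each tissue were knockout mice (iMSBmal1KO) given exercise training, Vehicle mice given exercise training, knockout mice with no exercise and Vehicle mice with no exercise. Training was 6 weeks of treadmill running each day, and tissue was taken 48 hours after the final bout. Because every group has the same genotype, the treatment given for the knockout and the loss of the gene cannot be told apart, and no group without Cre was analysed here. The labels do not say whether libraries of a group came from separate mice, so the p-values below measure only the spread between these libraries.

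B lymphocytes recognise antigen through a receptor made of membrane immunoglobulin and a signalling pair, CD79A and CD79B. Their identity is set by transcription factors such as PAX5, and complement and IgE receptors on their surface lower or raise the response. They recirculate through blood, spleen and lymph nodes and are a minor population in adipose tissue and lung, where they can also gather in clusters; the inguinal fat pad of the mouse encloses a lymph node. In RNA from whole tissue, fewer cells of a type and less RNA per cell cannot be told apart, and this holds for every result below.

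Library sizes were 19 to 31.2 M estimated reads in white fat, 18.7 to 35.7 M in lung, 14.1 to 21 M in heart and 12.4 to 20.7 M in liver. Levels are given in CPM, in fat and lung a gene's reads scaled to the size of its library. In heart and liver they are scaled CPM, the deposited signal divided by 1 factor per tissue. The tissue labels were matched by defining genes: Adipoq, the adipocyte hormone adiponectin, was at 1860 to 2904 CPM in white fat, Sftpc of alveolar type II cells at 9021 to 17019 in lung, cardiac myosin Myh6 at 16577 to 22045 in heart and Alb at 41641 to 72889 in liver. Myh6 was also present in every lung library, at 115 to 1009 CPM, and Alb reached 1511 in trained knockout fat library 2, where the median over the 12 fat libraries was 18.1. Arntl is the symbol under which Bmal1 is listed for fat, lung and liver, and no result for it is given here for heart. By edgeR, Arntl was called at an adjusted p under 0.05 in none of the 5 comparisons of fat or lung. Its log2 fold changes for the knockout were -0.20 in trained and 0.41 in sedentary fat, and -0.33 in trained and -0.59 in sedentary lung. In liver it was called lower for the knockout in trained mice (-0.96, adjusted p = 0.034, limma) and not in sedentary mice (-0.42, adjusted p = 0.995, limma). As the gene is deleted in muscle, its level in these tissues does not check the knockout.

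The 9 genes lie on 9 chromosomes. The coordinates in the fat and lung tables match the mouse build GRCm39, in which Cd79a spans chr7:24596922-24601284 on the plus strand, Cr2 chr1:194819120-194859028 and Bank1 chr3:135759125-136031828, both of these on the minus strand. RefSeq promoter windows, which use the build GRCm38.p6, were found for 6 of the 9 genes, as 8 windows; Ms4a1, Cd79b and Blk had none. The 250 bases before the start site were searched on both strands for CAGGTG, the letters bound by the E proteins that act in early B cell development, and these occurred in 4 of the 8 windows, of Cr2, Bank1, Cd79a and Fcer2a, against 17.2% of all 32851 windows. The letters CACGTG, bound by CLOCK and BMAL1, were in 0 of the 8 windows and in 6.02% of all windows. The octamer ATGCAAAT, bound by OCT factors, was likewise in 0 of the 8 windows, against 1.6% of all windows. The upstream bases of the receptor subunit and of the 2 genes with the lowest adjusted p in fat are shown as examples of the windows that hold these letters, each 5′ to 3′ in the direction of the gene, with the E-box in capitals (read on either strand). It starts 154 bases before the start site in Cd79a (chr7:24897247-24897496, plus strand), 88 in Cr2 (chr1:195176720-195176969, minus strand) and 145 in Bank1 (chr3:136326067-136326316, minus strand). A match describes these letters and no binding was measured.
Cd79a: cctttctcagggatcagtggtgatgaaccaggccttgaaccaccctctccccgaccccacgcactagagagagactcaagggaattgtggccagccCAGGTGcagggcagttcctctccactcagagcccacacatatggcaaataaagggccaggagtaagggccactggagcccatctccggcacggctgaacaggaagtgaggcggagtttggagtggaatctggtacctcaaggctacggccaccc
Cr2: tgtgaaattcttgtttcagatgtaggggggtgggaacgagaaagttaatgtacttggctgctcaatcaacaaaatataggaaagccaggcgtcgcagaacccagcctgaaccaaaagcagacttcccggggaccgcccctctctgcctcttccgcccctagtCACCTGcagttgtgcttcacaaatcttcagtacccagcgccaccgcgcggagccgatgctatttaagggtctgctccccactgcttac
Bank1: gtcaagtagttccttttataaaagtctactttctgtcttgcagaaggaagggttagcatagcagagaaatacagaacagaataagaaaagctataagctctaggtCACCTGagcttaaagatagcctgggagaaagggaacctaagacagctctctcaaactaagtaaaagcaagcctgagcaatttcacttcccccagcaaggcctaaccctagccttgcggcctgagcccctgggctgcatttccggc

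Per transcript length, the receptor subunits were the most abundant of the genes. In TPM, computed from the transcript lengths in the tables, the medians over the 12 fat libraries were 12.7 for Cd79a, 8.31 for Cd79b, 3.53 for Bank1, 3.17 for Ms4a1, 3.09 for Blk, 2.75 for Btla, 0.789 for Fcer2a, 0.575 for Pax5 and 0.136 for Cr2. Cd79a lay above Cd79b, Cd79b above Bank1, Btla above Fcer2a and Pax5 above Cr2 in 12 of 12 libraries. The other neighbours exchanged places: Bank1 was above Ms4a1 in 7 libraries, Ms4a1 above Blk in 9, Blk above Btla in 5 and Fcer2a above Pax5 in 9.

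In lung the median TPM was 37.5 for both Cd79b and Cd79a, and Cd79b was the higher one in 4 of 12 libraries. Ms4a1 followed at 8.68, Btla at 8.32, Fcer2a at 7.05, Blk at 5.37, Bank1 at 3.95, Pax5 at 3.48 and Cr2 at 1.82. Ms4a1 and Btla could not be ranked, each being the higher in 6 of 12 libraries. Fcer2a, among the lowest in fat, stood above Blk in 12 of 12 lung libraries.

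In white fat the summed level of the B lymphocyte genes was high in 2 of the 12 libraries, both from trained vehicle mice. It was 32.6, 27.6 and 24.4 CPM in trained knockout mice, against 206, 33.5 and 94.0 in trained vehicle mice. It was 22.1, 32.8 and 33.0 in sedentary knockout mice, against 20.5, 29.1 and 25.2 in sedentary vehicle mice. Trained vehicle library 1 exceeded every library of the other 3 groups for 9 of 9 genes, at 3.81 to 45.5 times their median. Library 3 of that group did so for 9 of 9 genes as well, at 2.33 to 16.7 times, and library 2 for 5 of 9, at 0.863 to 5.01 times. This group was picked because it was the highest, and the 9 genes moved together. The share of all genes that lay above the other groups in this way was not determined.

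**Figure D1:**
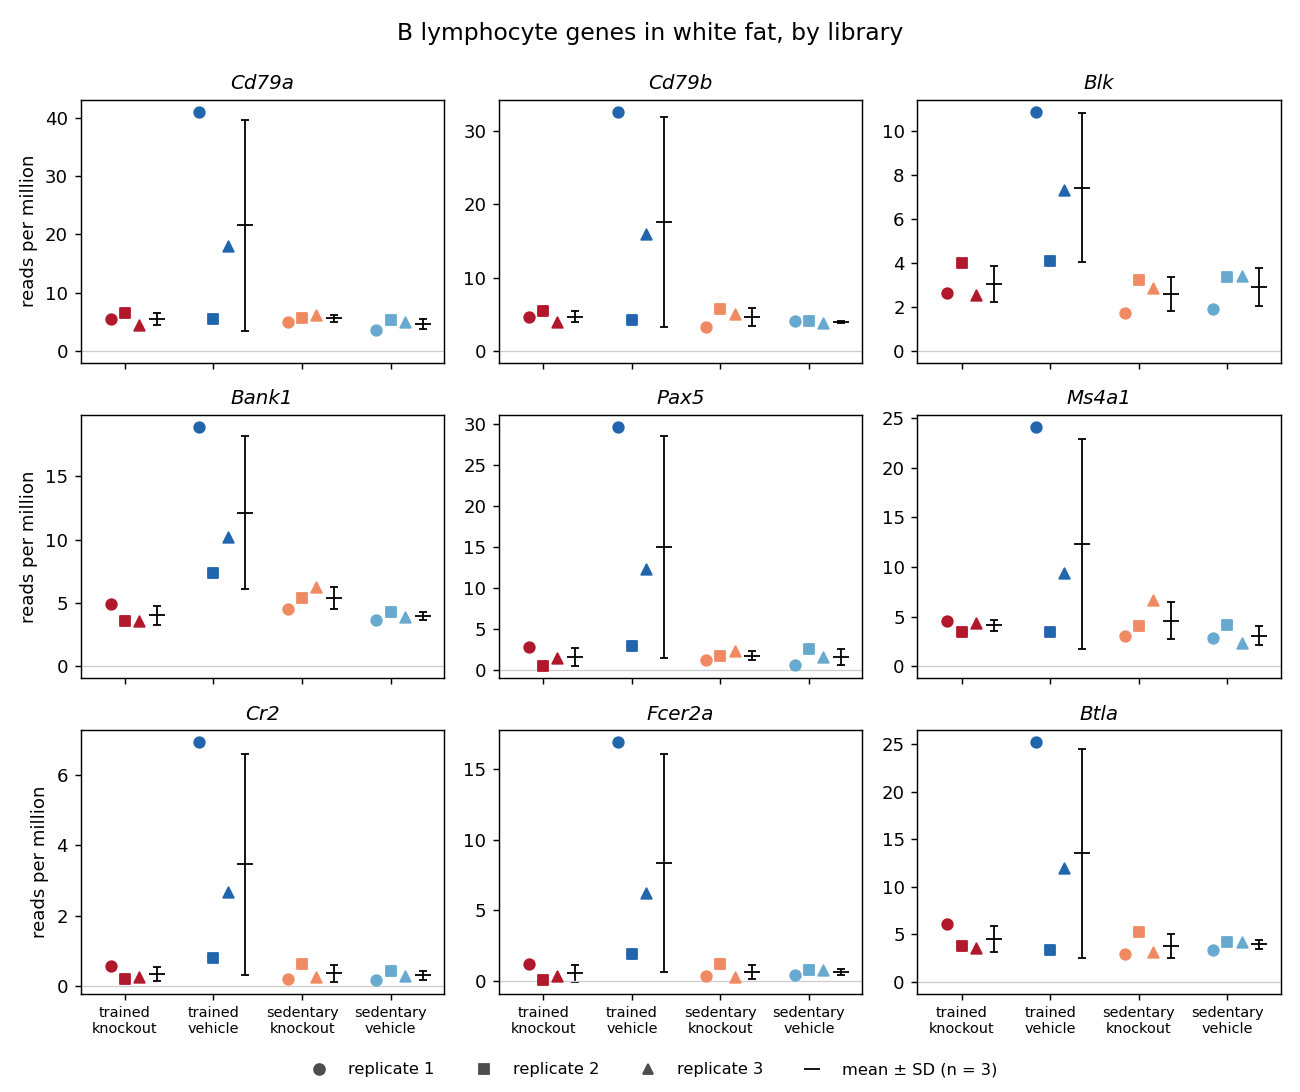
Level of each B lymphocyte gene in white fat, in CPM, by group; each point is 1 library, its shape gives the replicate number, and the bars show the mean ± SD of 3 libraries. Trained vehicle libraries 1 and 3 stand above all libraries of the other groups in every panel, and library 2 lies close to the other groups for Cd79a (5.49 CPM) and Btla (3.36).

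Among genes of the receptor and its signalling, Cd79a was at 5.39, 6.54 and 4.43 CPM in trained knockout fat, against 41.0, 5.49 and 18 in trained vehicle fat. Its partner Cd79b was at 4.56, 5.48 and 3.95 in trained knockout fat, against 32.6, 4.16 and 15.9 in trained vehicle fat. Both pairs of groups overlapped, through trained vehicle library 2. Bank1, an adaptor downstream of the receptor, was at 4.90, 3.59 and 3.59 in trained knockout fat, against 18.9, 7.34 and 10.2 in trained vehicle fat. Blk, a Src-family kinase of B cells, was at 2.65, 4.01 and 2.53 in trained knockout fat, against 10.9, 4.08 and 7.35 in trained vehicle fat. Bank1 and Blk did not overlap between these groups, although for Blk the gap was only 4.01 against 4.08.

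Pax5, the factor that maintains B cell identity, was at 2.74, 0.527 and 1.41 CPM in trained knockout fat, against 29.6, 2.93 and 12.3 in trained vehicle fat. Ms4a1, which encodes the surface protein CD20, was at 4.56, 3.43 and 4.33 in trained knockout fat, against 24.1, 3.47 and 9.39 in trained vehicle fat. The Pax5 groups were separate, narrowly, and the Ms4a1 groups overlapped.

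The remaining 3 genes encode surface receptors that tune the response. Cr2, which encodes complement receptor 2 and, by splicing, complement receptor 1 in the mouse, was at 0.588, 0.211 and 0.257 CPM in trained knockout fat, against 6.91, 0.795 and 2.67 in trained vehicle fat. Fcer2a, the low-affinity IgE receptor CD23 of mature follicular B cells, was at 1.17, 0.0516 and 0.314 in trained knockout fat, against 16.9, 1.87 and 6.22 in trained vehicle fat. Both were separate between the groups. Btla, an inhibitory receptor that B cells share with T cells, was at 6.07, 3.74 and 3.59 in trained knockout fat, against 25.2, 3.36 and 12 in trained vehicle fat, and its groups overlapped. The low levels of Cr2 and Fcer2a rest on few reads: the smallest value of any of the 9 genes in fat was 1 read in a library and the largest 1080.

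The comparison of knockout with vehicle among trained mice called 4 of the 9 genes lower in white fat (edgeR quasi-likelihood test on the summed counts, Benjamini-Hochberg adjusted over 15448 genes, threshold 0.05); 3.59% of all genes tested were called lower and 0.842% higher. Bank1 fell by 1.61 on the log2 scale (SE 0.31, adjusted p = 0.0367), with means of 4.03 ± 0.756 in trained knockout and 12.2 ± 6.03 CPM in trained vehicle fat (SD, n = 3 each). Cr2 fell by 3.32 (SE 0.76, adjusted p = 0.043), Fcer2a by 4.04 (SE 0.96, adjusted p = 0.0465) and Pax5 by 3.28 (SE 0.82, adjusted p = 0.0494), by the edgeR test. The other 5 did not pass: Cd79a had a log2 fold change of -2.0 (adjusted p = 0.0559), Cd79b -1.93 (0.0632), Blk -1.30 (0.0712), Btla -1.62 (0.103) and Ms4a1 -1.60 (0.118). All 9 fold changes were negative, with a median of -1.93 where the median over all genes was -0.00. The groups were separate for 5 of 9 genes, against 15.1% of all genes tested. No gene of the 9 was called when any one of the trained vehicle libraries 1, 2 or 3 was left out, and 0 of all genes passed then. The same held without trained knockout library 2, which stood apart by its Alb level. None of the 9 was called either without trained knockout 3, sedentary vehicle 1 or 3, or sedentary knockout 2. With all libraries, DESeq2 called 9 of the 9, among 1964 genes.

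Training in vehicle mice, which rests on the trained vehicle libraries used above too, gave differences of similar size that did not pass. None of 15448 genes was called by edgeR in white fat (percent called 0; 2785 genes and 9 of the 9 had an unadjusted p under 0.05), whereas DESeq2 called 737 genes, 8 of the 9 among them, all but Cr2. The log2 fold changes of trained against sedentary vehicle fat were 1.34 for Blk, 1.60 for Bank1, 1.77 for Btla, 1.98 for Ms4a1, 2.13 for Cd79b, 2.20 for Cd79a, 3.25 for Pax5, 3.42 for Cr2 and 3.68 for Fcer2a, with adjusted p from 0.108 to 0.158 in edgeR. The trained vehicle libraries were all above the sedentary vehicle ones for 7 of 9 genes, against 17.6% of all genes tested; Ms4a1 and Btla overlapped. Sedentary vehicle fat held Cd79a at 3.62, 5.36 and 4.89, Bank1 at 3.66, 4.28 and 3.92, Cr2 at 0.190, 0.447 and 0.299 and Fcer2a at 0.372, 0.745 and 0.776 CPM.

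In knockout mice no difference with training passed the test. The log2 fold changes for trained against sedentary knockout fat lay between -0.48 (Bank1) and 0.21 (Btla); 0 of all genes and 0 of the 9 were called by edgeR, 2516 genes but none of the 9 had an unadjusted p under 0.05, and DESeq2 called 553 genes with none of the 9. The standard errors, 0.31 for Bank1 to 0.98 for Fcer2a, bound how much could have been seen. Knockout against vehicle in sedentary fat gave -0.15 to 0.60, with 0 of the 9 called against 0.557% of all genes (0.427% higher, 0.129% lower); Bank1, at 4.55, 5.42 and 6.30 CPM in sedentary knockout mice against 3.66, 4.28 and 3.92 in sedentary vehicle mice, was the only one whose groups were separate (11.5% of all genes were separate in that direction). DESeq2 called 918 genes there and none of the 9. The training response of knockout minus that of vehicle mice was negative for 9 of 9 genes in fat, between -3.93 and -1.15, with adjusted p of 0.119 to 0.304. By edgeR 0 of all genes were called for it, 2848 genes and 7 of the 9 had an unadjusted p under 0.05, and DESeq2 called 701 genes with 5 of the 9.

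**Figure D2:**
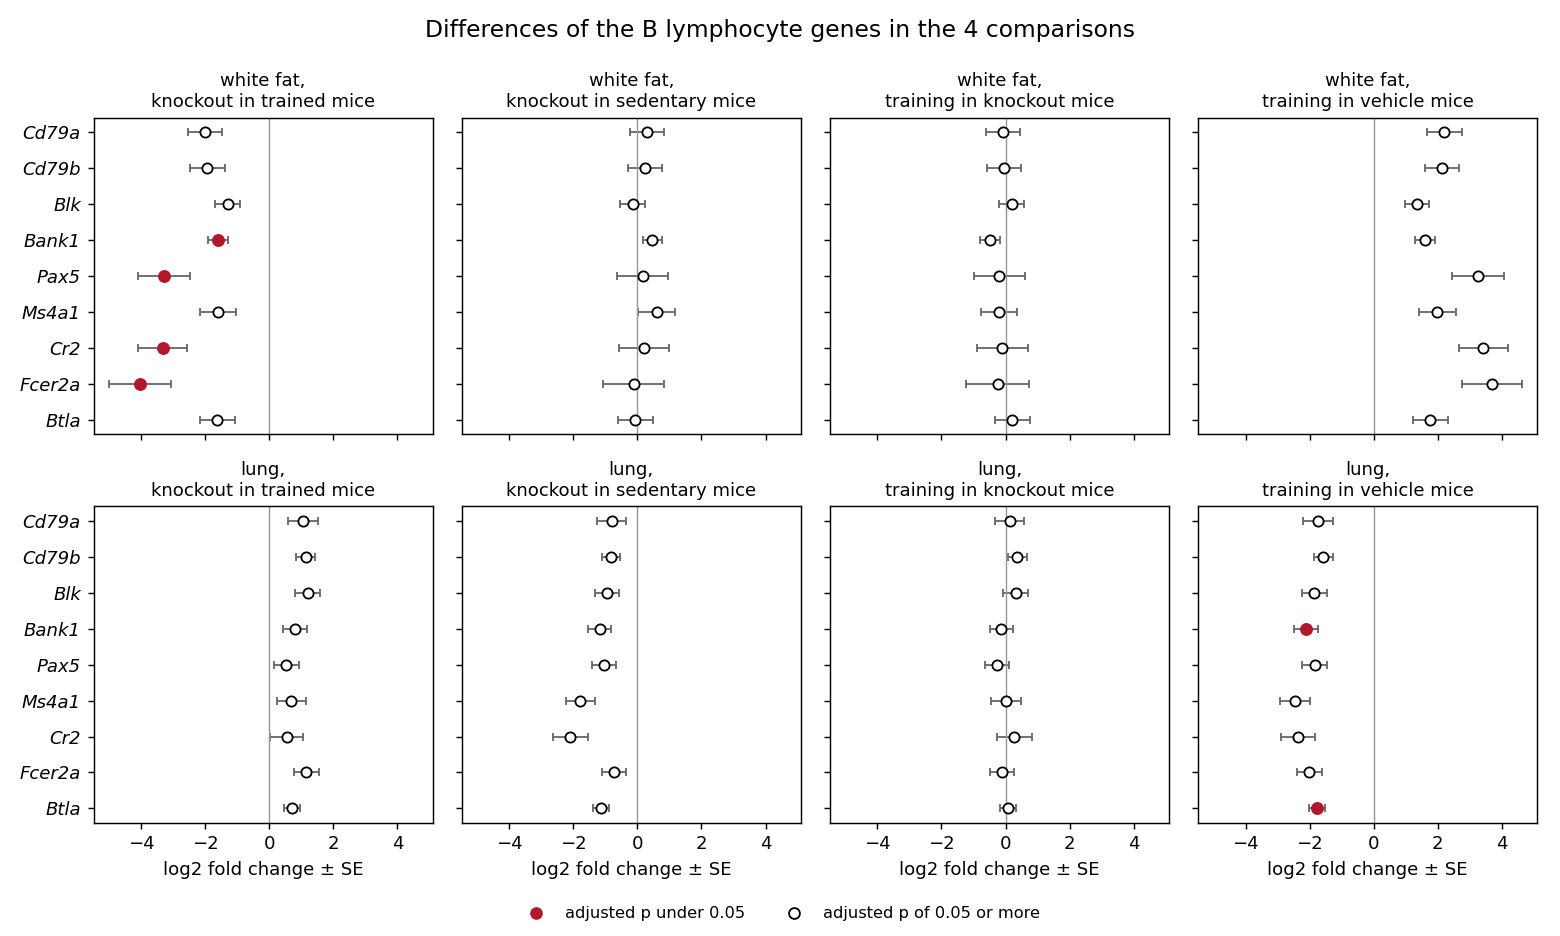
Log2 fold change (± SE) of each B lymphocyte gene in white fat (top) and lung (bottom) for 4 comparisons, by edgeR; filled points have an adjusted p under 0.05. In fat, Bank1, Cr2, Fcer2a and Pax5 are filled for knockout in trained mice, and in lung Bank1 and Btla are filled for training in vehicle mice, with signs opposite to those of fat in that comparison.

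The make-up of the summed signal also differed between fat libraries. Fcer2a made up 5.58 to 8.21% of the summed level in the trained vehicle libraries, against 0.187 to 3.61% in the 9 libraries of the other groups. Pax5 made up 8.74 to 14.4%, against 1.91 to 8.58%, and Cr2 2.37 to 3.35%, against 0.765 to 1.94%. For these 3 genes the trained vehicle libraries, library 2 included, were separate from all others; the share of Cd79a, 16.4 to 19.9% against 16.5 to 23.7%, was not. Between the 2 highest libraries the ratio of library 1 to library 3 was 1.48 for Blk to 2.72 for Fcer2a.

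Some other B cell genes were called in the same comparison, in which 3.59% of all genes tested were called lower and 0.842% higher. Of the 23 tested genes of a list of B cell identity, 4 were called lower than in trained vehicle fat and 0 higher, and the median log2 fold change was -1.31. Among them were Cd37, a tetraspanin (-1.42, SE 0.24, adjusted p = 0.0363), Bach2, a repressor of plasma cell fate (-1.29, SE 0.24, adjusted p = 0.0363) and the inhibitory lectin Cd22 (-2.51, SE 0.61, adjusted p = 0.0473), all by edgeR. Ebf1, a B cell factor that adipocyte precursors also express, was at 189, 147 and 200 in trained knockout fat, against 139, 129 and 116 in trained vehicle fat, and did not pass the test.

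Of 18 genes of receptor signalling, 5 were called lower and 0 higher, against 3.59% and 0.842% of all genes tested. These were Syk (log2 fold change -1.38), Inpp5d (-1.01), Btk (-1.04), Prkcb (-1.60) and Blnk. The median over the 18 was -0.95, and myeloid cells share the kinases Syk and Btk. Of a longer list of immunoglobulin and plasma cell genes only 9 were tested, and which immunoglobulin chains were among them is not given here. Of these 9, 0 were called by edgeR and 0 by DESeq2, and the median was -0.53. By edgeR, 2 of the 9 had an unadjusted p under 0.05, against 25.4% of all genes tested. The joining chain Jchain was at 387, 400 and 181 CPM in trained knockout fat, against 883, 334 and 454 in trained vehicle fat.

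Markers of T cells and macrophages also differed between trained knockout and trained vehicle fat, where 3.59% of all genes tested were called lower. T cell genes were called lower in trained knockout fat for 2 of 21 tested, Cd28 (log2 fold change -1.84) among them, and the list's summed level was 70.2 to 124 CPM in trained knockout fat, against 178 to 362 in trained vehicle fat. Macrophage genes were called lower for 7 of 16 (C1qa, C1qb, C1qc, Siglec1, Lyz2, Csf1r and Adgre1), with sums of 1714 to 3112 CPM in trained knockout fat, against 4720 to 5844 in trained vehicle fat. Trained vehicle library 2, whose sum of the B lymphocyte genes (33.5 CPM) was the lowest of its group, had the highest macrophage sum, 5844. Dendritic cell genes, 1 of 10 called lower (Clec10a), summed to 168 to 241 in trained knockout and 293 to 329 in trained vehicle fat. NK cell sums overlapped, at 13.5 to 22.4 in trained knockout and 11.3 to 29.4 in trained vehicle fat. Those of MHC class II overlapped too, at 1325 to 2055 in trained knockout and 1117 to 1791 in trained vehicle fat. From that list H2-Ob was called lower in trained knockout fat (log2 fold change -2.43, SE 0.57, adjusted p = 0.0453, edgeR). Neutrophil sums overlapped as well, at 20.2 to 47.9 in trained knockout and 39.2 to 49.4 in trained vehicle fat. Adipocyte genes summed to 39913 to 49718 in trained knockout and 33106 to 39028 in trained vehicle fat. Of these, 0 of 12 were called by edgeR and 5 by DESeq2, and 12 of 12 fold changes were positive. By edgeR, 7 of the 12 had an unadjusted p under 0.05, against 25.4% of all genes tested.

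A broad list of lymph node stroma and venule genes, whose most abundant gene was Mfge8 (mean 437 CPM), had 13 of 15 in the fat table. It summed to 1344, 1133 and 906 CPM in trained knockout fat, against 1476, 1510 and 1456 in trained vehicle fat, above the 872 to 1358 of the other 3 groups. In it 1 of 13 genes was called lower (Pdpn) and 1 higher (Enpp2), against 3.59% and 0.842% of all genes tested. A narrower list of 6 genes selective for that stroma had 4 in the fat table, Chst4, Cxcl13, Ccl19 and Ccl21a, none at 0 in all libraries; Glycam1 and Madcam1 were not among its symbols. Its sum was 51.5, 199 and 66.2 CPM in trained knockout fat, against 188, 67.2 and 83.4 in trained vehicle fat, 56.9, 60.6 and 33.4 in sedentary knockout fat and 48.8, 76.4 and 58.9 in sedentary vehicle fat. The 2 libraries with the highest sums were trained knockout 2, where the B lymphocyte genes were low, and trained vehicle 1, where they were highest. Cxcl13, the chemokine of B cell follicles, was at 170 and 87.6 in those libraries, and Ccl21a, which guides T cells, at 21.5 and 97.2. By edgeR and by DESeq2 0 of the 4 were called. By edgeR, 1 had an unadjusted p under 0.05, against 25.4% of all genes tested. The part that T cell, macrophage or lymph node RNA has in the B lymphocyte result was not tested.

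**Figure D3:**
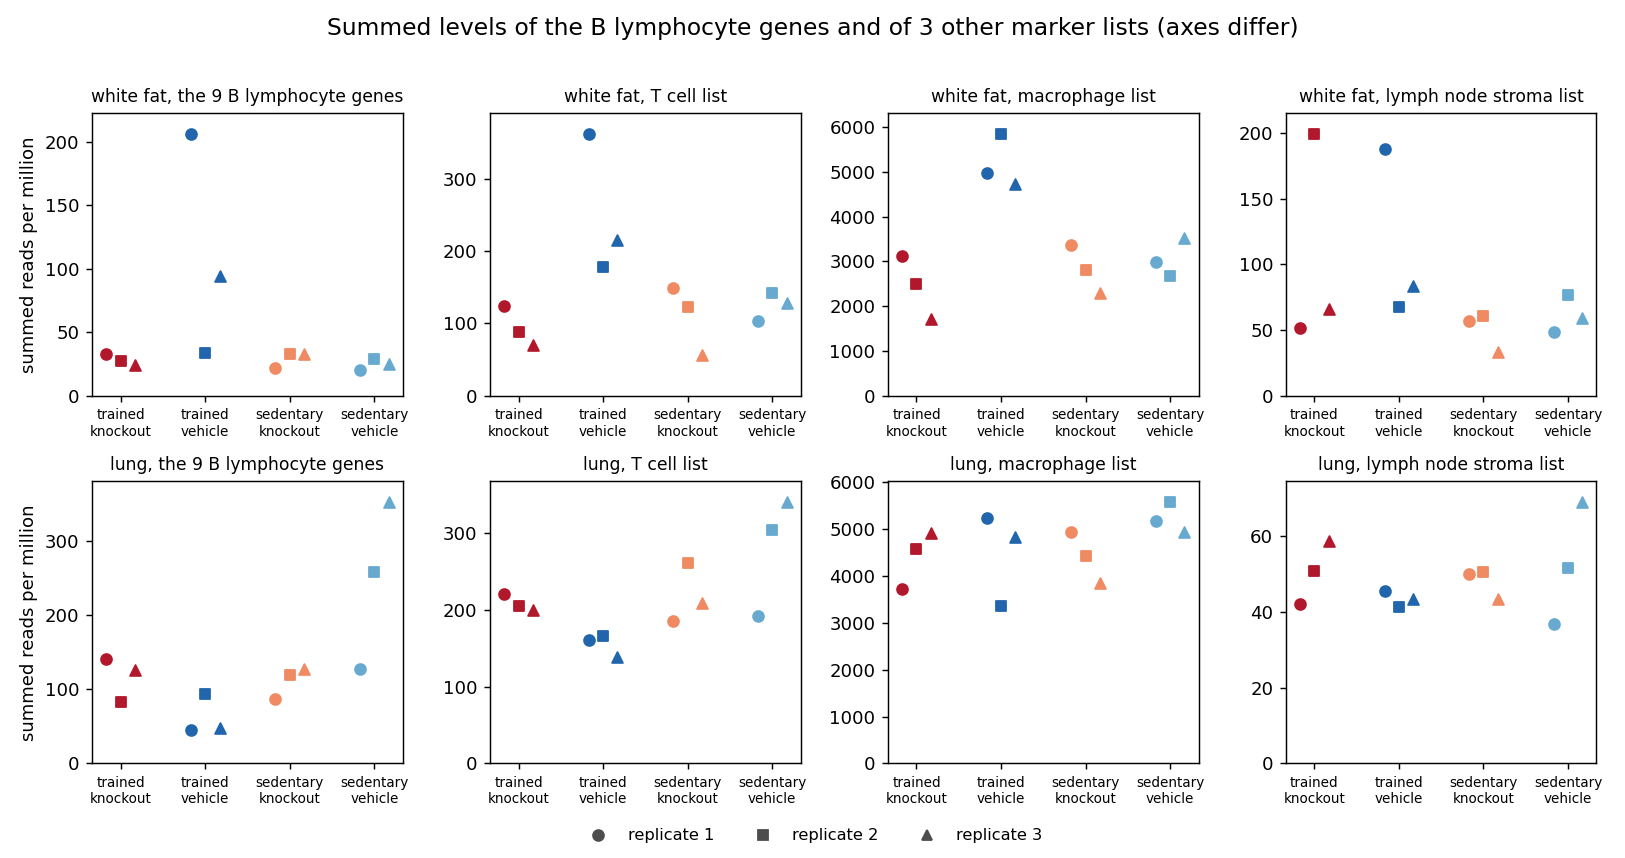
Summed level in CPM of the 9 B lymphocyte genes, a T cell list, a macrophage list and the lymph node stroma list, in white fat (top) and lung (bottom); each point is 1 library and the vertical axes differ. In fat, T cell and macrophage sums of trained vehicle mice (178 to 362 and 4720 to 5844) lie above all other groups, and the sum of the selective lymph node list is highest in trained knockout library 2 (199).

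The pattern of the 9 genes over the 12 fat libraries was shared closely by lymphocyte genes outside the list. Among 12386 genes, those with the highest correlation with the mean of the 9 (standardised log2 levels) included Chst3 (r = 0.986), Fcmr (0.977), Ripor2 (0.956), Ccr7 (0.953) and H2-Ob (0.945). Fcmr encodes the IgM receptor, Ccr7 a receptor for homing to lymph nodes and H2-Ob a chain of the MHC class II modulator of B cells. Among the 9 themselves the 36 pairwise correlations ranged between 0.823 (Ms4a1 and Blk) and 0.988 (Cr2 and Fcer2a), with a median of 0.926. All these values are descriptions over 12 libraries of one table, and the 2 high libraries weigh on each of them.

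In lung the high libraries belonged to another group. The summed level of the 9 genes was 141, 82.5 and 126 CPM in trained knockout mice, against 44.8, 94.1 and 48.2 in trained vehicle mice. It was 86.5, 119 and 128 in sedentary knockout mice, against 128, 258 and 353 in sedentary vehicle mice. Sedentary vehicle libraries 3 and 2 exceeded every library of the other 3 groups for 9 of 9 genes, at 2.60 to 7.05 and 2.27 to 4.53 times their median. Library 1 of that group did so for 3 of 9 genes, at 0.932 to 2.25 times. Here too the group was picked as the highest, and the share of all genes above in this way was not determined.

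**Figure D4:**
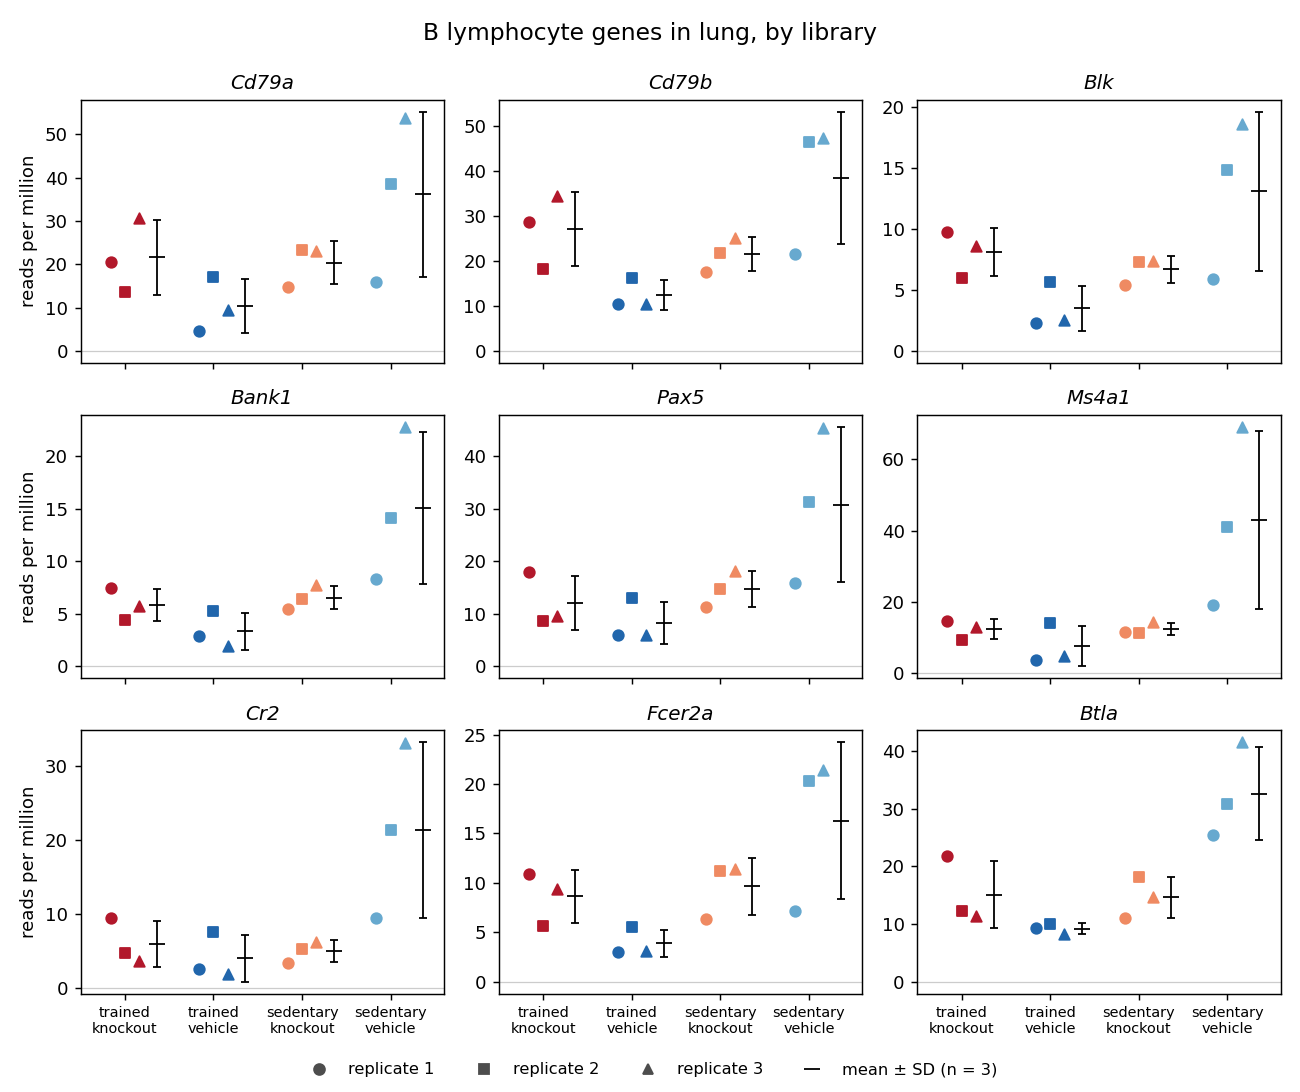
Level of each B lymphocyte gene in lung, in CPM, by group; each point is 1 library, its shape gives the replicate number, and the bars show the mean ± SD of 3 libraries. Sedentary vehicle libraries 2 and 3 are the highest 2 in each panel, and trained vehicle libraries 1 and 3 are among the lowest, for example 4.65 and 9.54 CPM for Cd79a.

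Trained vehicle lungs had lower mean levels than sedentary vehicle lungs for each of the genes. Cd79a was at 4.65, 17 and 9.54 CPM in trained vehicle lung, against 15.9, 38.6 and 53.9 in sedentary vehicle lung. Cd79b was at 10.5, 16.2 and 10.3 in trained vehicle lung, against 21.4, 46.4 and 47.3 in sedentary vehicle lung. The groups of Cd79a overlapped, through trained vehicle library 2, and those of Cd79b did not. Bank1 was at 2.84, 5.30 and 1.89 in trained vehicle lung, against 8.36, 14.1 and 22.8 in sedentary vehicle lung. Blk was at 2.29, 5.63 and 2.53 in trained vehicle lung, against 5.89, 14.8 and 18.6 in sedentary vehicle lung. Both were separate, Blk by a narrow margin.

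Pax5 was at 5.95, 12.9 and 5.94 CPM in trained vehicle lung, against 15.8, 31.2 and 45.3 in sedentary vehicle lung. Ms4a1 was at 3.73, 14.1 and 4.79 in trained vehicle lung, against 19.1, 40.9 and 69.1 in sedentary vehicle lung. Trained vehicle library 2 was the highest of its group for both, and the groups stayed separate. Cr2 was at 2.53, 7.54 and 1.78 in trained vehicle lung, against 9.37, 21.3 and 33.1 in sedentary vehicle lung. Fcer2a was at 2.98, 5.49 and 3.12 in trained vehicle lung, against 7.12, 20.3 and 21.4 in sedentary vehicle lung. Btla was at 9.34, 10 and 8.24 in trained vehicle lung, against 25.5, 30.9 and 41.5 in sedentary vehicle lung, and its groups were separate.

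Training in vehicle mice called 2 of the 9 genes lower in lung and 0 higher (edgeR, adjusted over 16151 genes), where 0.186% of all genes were called lower and 0.0186% higher, 0.204% in all (33 genes). Btla fell by 1.78 on the log2 scale (SE 0.25, adjusted p = 0.0188), with means of 9.20 ± 0.901 in trained vehicle and 32.6 ± 8.15 CPM in sedentary vehicle lung (SD, n = 3 each). Bank1 fell by 2.11 (SE 0.38, adjusted p = 0.0467), with means of 3.34 ± 1.76 in trained vehicle and 15.1 ± 7.27 in sedentary vehicle lung, by the same edgeR test. The log2 fold changes of the other 7 were -1.58 for Cd79b (adjusted p = 0.0537), -2.45 for Ms4a1 (0.0577), -2.02 for Fcer2a (0.061), -1.84 for Pax5 (0.0776), -1.85 for Blk (0.0802), -2.36 for Cr2 (0.091) and -1.74 for Cd79a (0.14). Their median over the 9 was -1.85, and over all genes -0.01. The groups were separate for 8 of 9 genes, against 16.1% of all genes tested in that direction. Without sedentary vehicle library 1, 9 of the 9 were called, and without library 2 or 3 of that group 0 were; DESeq2 called 8 of the 9, among 405 genes.

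The 33 genes called in that comparison included further lymphocyte genes of the lists, the IgM receptor Fcmr (-1.89, SE 0.32, adjusted p = 0.0392) of B cell identity and Ms4a4b (-1.28, SE 0.23, adjusted p = 0.049) of the T cell list, by edgeR. Fcmr was at 3.28, 6.42 and 3.56 CPM in trained vehicle lung, against 9.64, 20.2 and 21.4 in sedentary vehicle lung. Of the B cell identity list 1 of 24 was called lower, against 0.186% of all genes tested. Its fold changes were negative for 24 of 24 genes, with a median of -1.46. Over all genes tested in that comparison, 12.8% had an unadjusted p under 0.05 by edgeR. Receptor signalling had 0 of 18 called by edgeR, 11 at an unadjusted p under 0.05 and 4 called by DESeq2 (median -0.53). The immunoglobulin and plasma cell list, again tested only in part, had 0 of 9 called by edgeR, 1 at an unadjusted p under 0.05 and 0 called by DESeq2 (median -0.12).

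The T cell list had 2 of 21 called lower, against 0.186% of all genes tested, with a median of -0.87. Its sum was 138 to 166 CPM in trained vehicle lung, against 192 to 340 in sedentary vehicle lung. Macrophage genes summed to 3354 to 5245 in trained vehicle lung, against 4927 to 5577 in sedentary vehicle lung, with 0 of 15 called by edgeR and 0 by DESeq2. By edgeR, 2 of the 15 had an unadjusted p under 0.05, against 12.8% of all genes tested. Lymph node stroma genes, 5 of 6 in the lung table, summed to 41.3 to 45.4 in trained vehicle lung, against 36.8 to 69.0 in sedentary vehicle lung. Sedentary vehicle library 3, the highest for the B lymphocyte genes, also had the highest stroma sum, with Cxcl13 at 33.3, and the highest Adipoq, 48.0, where the median of the 12 lungs was 9.58. Heart muscle genes, of which 9 were in the lung table, summed to 717 to 2086 in trained vehicle lung, against 308 to 839 in sedentary vehicle lung. Their part in the B lymphocyte result was not tested.

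The other lung comparisons called no gene at all by edgeR. Knockout against vehicle in sedentary lung was negative for 9 of 9 genes, between -2.09 for Cr2 and -0.74 for Fcer2a (adjusted p 0.179 to 0.445), and the groups of Cr2, Ms4a1, Bank1 and Btla were separate, 4 of 9 against 13.8% of all genes. It shares the sedentary vehicle libraries with the training comparison. Cr2 was at 3.34, 5.26 and 6.19 CPM in sedentary knockout lung, against 9.37, 21.3 and 33.1 in sedentary vehicle lung. At an unadjusted p under 0.05 it had 2200 genes and 7 of the 9, and DESeq2 called 244 genes with 1 of the 9, Btla.

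Knockout against vehicle in trained lung was positive for 9 of 9 genes, between 0.53 for Pax5 and 1.21 for Blk (adjusted p 0.282 to 0.603). Cd79b, at 28.7, 18.2 and 34.3 CPM in trained knockout lung against 10.5, 16.2 and 10.3 in trained vehicle lung, Btla, Blk and Fcer2a were separate, 4 of 9 against 13.2% of all genes. By edgeR 0 genes were called, 2620 genes and 5 of the 9 had an unadjusted p under 0.05, and DESeq2 called 71 genes with none of the 9. Training in knockout lung gave -0.27 to 0.37, and 0 of the 9 had an unadjusted p under 0.05 among 2688 genes that did; DESeq2 called 125 genes, none of the 9. The training response of knockout minus that of vehicle mice was positive for 9 of 9 genes in lung, between 1.57 and 2.63 (adjusted p 0.207 to 0.245). By edgeR 0 genes were called for it, 2451 genes and 9 of the 9 had an unadjusted p under 0.05, and DESeq2 called 294 genes with 5 of the 9.

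Ms4a1 made up 14.9 to 19.6% of the summed level in sedentary vehicle lung, against 8.32 to 14.9% in the other 3 groups. Fcer2a, whose share set the trained vehicle fat apart, was 5.55 to 7.87% in sedentary vehicle lung and 5.84 to 9.38% elsewhere. Between libraries 3 and 2 of sedentary vehicle lung the ratio was 1.02 for Cd79b to 1.69 for Ms4a1. Over the 12 lung libraries, the genes closest to the mean of the 9 among 13190 included Fcrl1 (r = 0.985), Fcmr (0.984), Cd22 (0.984), Siglecg (0.977), Gpr183 (0.974), H2-Ob (0.973) and Gpr18 (0.971). The 36 correlations among the 9 had a median of 0.920 in lung.

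Fat and lung gave opposite signs for training in vehicle mice in 9 of 9 genes, and the difference between the tissues was not tested. Cr2 had 3.42 in fat and -2.36 in lung, Fcer2a 3.68 and -2.02, and Bank1 1.60 and -2.11. For 6 of the genes every trained library lay above every sedentary one in fat and below in lung, against 3.99% of the 14786 genes tested in both tissues, and Cd79a, Ms4a1 and Btla overlapped in one of the tissues. Separate groups of opposite direction were also seen for 1 of 9 genes for knockout in sedentary mice (Bank1, higher in fat and lower in lung, against 2.04% of genes) and for 2 of 9 for knockout in trained mice (Blk and Fcer2a, lower in fat and higher in lung, against 2.36%). The highest levels also came from different groups, trained vehicle in fat and sedentary vehicle in lung. The sums of the knockout groups were 24.4 to 32.6 in trained and 22.1 to 33.0 in sedentary fat, and 82.5 to 141 in trained and 86.5 to 128 in sedentary lung.

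**Figure D5:**
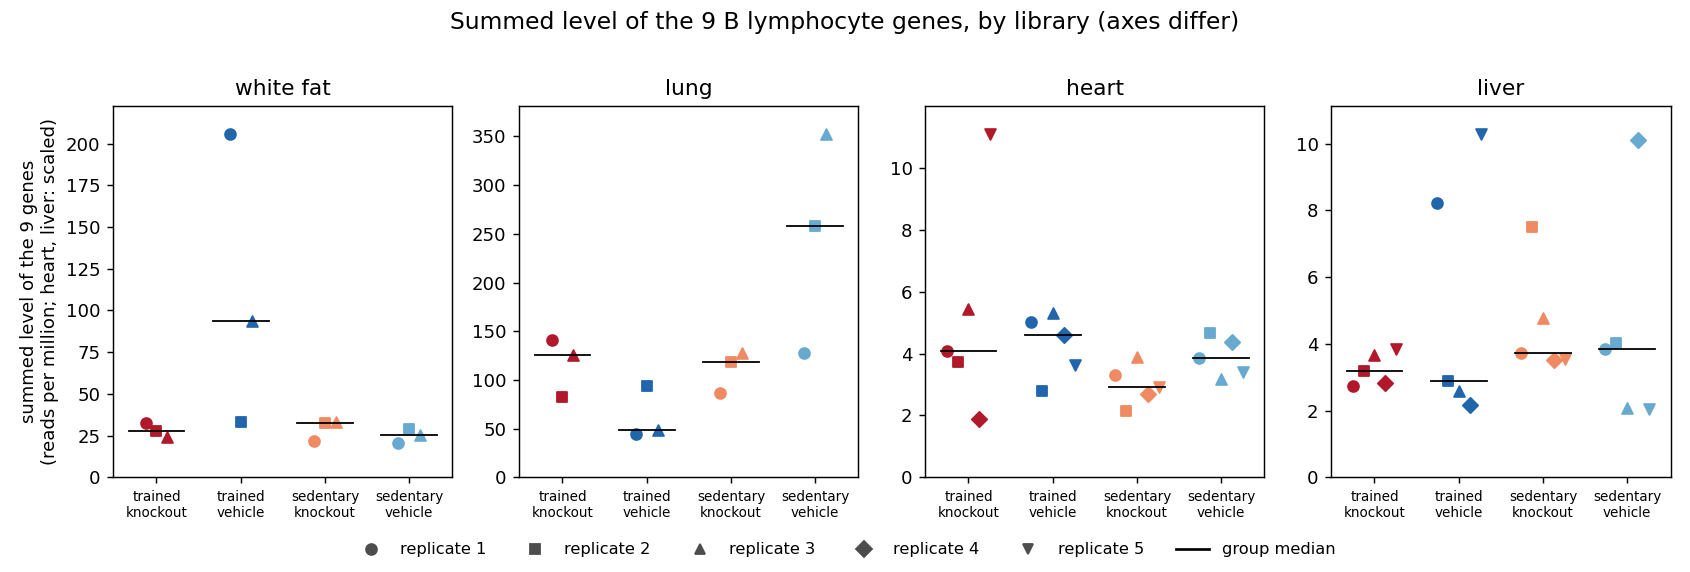
Summed level of the 9 B lymphocyte genes by library in white fat, lung, heart and liver (CPM; scaled values in heart and liver); lines mark group medians and the vertical axes differ. Trained knockout library 5 in heart (11.1) and sedentary vehicle library 4 in liver (10.1) stand apart from the rest of their groups. Pairs of libraries of a group are high elsewhere. These are trained vehicle 1 and 3 in white fat (206 and 94.0), sedentary vehicle 3 and 2 in lung (353 and 258) and trained vehicle 5 and 1 in liver (10.3 and 8.23).

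Heart and liver held few reads of these genes, 0 to 62 in a heart library and 0 to 63 in a liver library, and 0 of the 9 reached the mean of 1 scaled CPM needed for the test. Of 180 values, 7 in heart and 10 in liver were at 0, which allows up to 3 reads per library. Their sum had a median of 3.79 over the 20 hearts and 3.61 over the 20 livers. In an added edgeR fit on reads estimated from the scaled values, 4 of the 9 in heart and 5 in liver passed the filter, and their adjusted p was at least 0.515 in heart and 0.371 in liver over the 5 comparisons.

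In heart, trained knockout library 5 stood apart with a sum of 11.1; it held Cd79a at 3.41, Ms4a1 at 1.98 and Cd79b at 1.98 scaled CPM. Cd79a was at 0.190 to 0.370 in the other 4 hearts of that group. The same heart had Ighm at 63.0, where the other 4 had 7.36 to 9.98, and Igkc at 22.8 against 1.54 to 1.99. Its Adipoq, 21.7, was the highest of the 20 hearts, whose median was 0.679. For each of the 9 genes the groups overlapped in all heart comparisons.

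In liver, Cd79b was at 0.114 to 0.508 (median 0.430) in trained knockout mice, against 0.617 to 1.43 (median 0.978) in sedentary knockout mice, and Fcer2a at 0 to 0.161 against 0.190 to 0.301. These were 2 of 9 genes separate in that direction, against 0.905% of the genes tested, which all have higher mean levels, and 0.545% of 8078 genes with a mean above 0 and under 1 scaled CPM. On estimated reads Cd79b had a log2 fold change of -1.49 with an adjusted p of 0.371 (edgeR). Fcer2a rested there on 0 to 3 reads in trained and 3 to 5 in sedentary knockout livers.

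The correlation among the 9 was weaker where reads were few. Its median over 36 pairs was 0.200 in the 20 hearts and 0.454 in the 20 livers.

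Several of the genes have more than 1 transcript in the fat and lung tables, 2 for Cr2, Cd79b, Bank1 and Btla and 6 (fat) or 7 (lung) for Fcer2a, and the split between them was estimated by the authors' software. In trained vehicle fat the shorter Cr2 transcript, of 6210 bases, took 40.1 to 77.5% of the Cr2 reads and the longer, of 7334 bases, 22.5 to 59.9%. Elsewhere in fat the share of the longer transcript ran from 0.0288 to 100% between single libraries, which hold few Cr2 reads. The sums per gene used above do not depend on this split.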

How the data were processed

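RNA sequencing of 64 mouse libraries from 4 tissues was used as deposited. Per the submitters' processing notes, Partek, STAR 2.7.8a, mm10 and GRCm39 were involved, with no roles given; the quantifier and strand setting are not given in the sources used here. The labels call the tables CPM, but the fat and lung tables hold the authors' expected counts per transcript, whole or fractional, with differing library totals. The heart and liver tables hold a signal that the authors scaled across libraries (deposited values are whole multiples of 1 unit per library for 80.9 to 83.7% of values, within 0.02 reads).

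Expected counts were summed per symbol and rounded. They were tested with edgeR 4.0.16 (R 4.3.3; TMM, filterByExpr, glmQLFit, 4 groups per tissue in 1 fit, Benjamini-Hochberg over all genes, threshold 0.05; SE from the fold change and F). The heart and liver signal was divided by 1 factor per tissue and tested with limma 3.58.1 on log2(value + 1), for genes with a mean of at least 1. CPM and TPM were computed from the counts. DESeq2 1.42.0, RLE factors, no filter, a pseudocount of 0.1, a replicate block, the groups compared alone, and each library left out were alternatives; edgeR on reads estimated from the heart and liver steps was added after the data were seen. Tests were checked on simulated data.

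Members and gene lists were chosen with earlier results of these data known. All 9 members are named; from each list, up to 4 called genes with the smallest p are named, or up to 2 of the highest level where none was called, and the 8 genes of most similar pattern (mean of at least 2 CPM). Some genes these rules select are not reported here. Single library values of list genes (Jchain, Ebf1, Ighm, Igkc, Cxcl13, Ccl21a, Adipoq), Blnk and the further macrophage names were chosen after values were seen. No 2 libraries of 1 tissue shared more than 2.06% of their values.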

Additional observations from a re-analysis of the deposited data

Results flagged for a closer look

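The 9 genes and their sum gave 80 sets of 5 libraries over the 4 groups of heart and liver; in 7 of the sets 1 library lay far from the rest, and chance flags about 1 in 20 groups. In heart, trained knockout library 5 held Cd79a at 3.41 and Cd79b at 1.98 scaled CPM, where the next values of its group were 0.370 and 0.533. Trained vehicle library 4 held Cd79a at 0.167, below a next value of 0.478. In liver, sedentary knockout library 2 held Ms4a1 at 1.28, next to 0.380. Sedentary vehicle library 4 held Cd79a at 3.05, next to 0.558, Bank1 at 1.55, next to 0.769, and a sum of the 9 genes of 10.1, next to 4.04.

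Under the same contrast, all libraries moved one way in white fat and the opposite way in lung for several genes; the difference between tissues was not tested. Of the 14786 genes tested in both tissues, 3.99% did so for training in vehicle mice, 2.04% for knockout in sedentary mice and 2.36% for knockout in trained mice, in the directions given here. For training in vehicle mice the log2 fold changes were 3.42 in fat and -2.36 in lung for Cr2, 3.25 and -1.84 for Pax5, 2.13 and -1.58 for Cd79b, 1.60 and -2.11 for Bank1, 1.34 and -1.85 for Blk, and 3.68 and -2.02 for Fcer2a. For knockout in sedentary mice Bank1 had 0.47 in fat and -1.18 in lung. For knockout in trained mice Blk had -1.30 in fat and 1.21 in lung, and Fcer2a -4.04 and 1.15.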

How the results depend on the processing

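Over 54 results for single genes (9 genes, 6 comparisons in fat and lung) and 900 alternative values, none changed sign. Of these values 794 kept their side of the threshold, 64 lost a call and 42 gained one. The 6 were training in vehicle mice and the training response in both tissues, knockout in trained fat and knockout in sedentary lung. Their main log2 fold changes were all at least 0.74 in size. Knockout in trained lung and the comparisons with fold changes near 0 were left out, so the stable signs do not cover them. For knockout in trained fat, 4 of the 9 genes called became 3 with RLE factors, 2 with no filter, 9 with DESeq2, 0 with the 2 groups fitted alone and 1, Bank1, with the replicate block; leaving out single libraries gave 0 to 4, and 0 without any one of trained vehicle 1, 2 or 3, trained knockout 2 or 3, sedentary vehicle 1 or 3, or sedentary knockout 2. All genes called were 685 there, 1964 with DESeq2, 418 with no filter and 0 to 1630 with a library left out. Training in vehicle fat gave 8 genes of the 9 with DESeq2 and 0 to 2 with a library left out, and the 2 groups alone 216 genes of all; the training response of knockout minus vehicle in fat gave 5 and 0 to 1.

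For training in vehicle lung, 2 called became 8 with DESeq2, 1 (Btla) with the 2 groups alone, 1 (Btla) with the replicate block and 0 to 9 with a library left out; 0 remained without sedentary vehicle 2 or 3, trained vehicle 1 or 3, or sedentary knockout 3. All genes called were 33 there, 405 with DESeq2, 12 with the block, 6 alone and 0 to 206 with a library left out. Knockout in sedentary lung gave 1 and the training response of knockout minus vehicle in lung 5 with DESeq2. Knockout in sedentary fat called 86 genes, 10 with the block, 12 alone, 33 with no filter and 918 with DESeq2. The cause of these moves was not tested, apart from the fewer libraries. Replicate numbers did not pair the samples: same-number deviations correlated at -0.389 to 0.367 in fat and -0.258 to 0.308 in lung. In heart and liver 0 of the 9 genes reached the mean of 1 scaled CPM needed for the main test. The edgeR fit on estimated reads of the same libraries kept 4 in heart and 5 in liver.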
